A study of Mus musculus with 2 samples.

Results

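This account covers 10 mouse genes that store, move or release iron: Fth1, Ftl1, Slc40a1, Cp, Trf, Tfrc, Slc11a2, Slc11a1, Hmox1 and Blvrb. They were picked by symbol out of 27998 genes, and each symbol named exactly 1 row in both tables. The tables hold single-cell RNA sequencing of whole lung from male C57Bl/6J mice aged 3 months. All animals had a particle suspension placed in the trachea at 100 µg, either titanium dioxide (TiO2) or crocidolite, an asbestos fibre that carries iron, and lungs were taken at day 14. There was 1 library from 1 mouse labelled control and 1 library from 1 mouse labelled fibrosis. Both particles are named for every animal, without stating the particle given to each, so the groups keep the names control and fibrosis. With 1 mouse in each group no difference has a replicate check, no p-value is given, and every interval below is a 95% interval that covers counting error only.

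Iron that is not in use is held inside ferritin, a shell of heavy chains (Fth1, which oxidise iron) and light chains (Ftl1, which help to build the mineral core). It enters most cells bound to transferrin (Trf) through the transferrin receptor (Tfrc), crosses internal membranes through Slc11a2 or, in the phagosomes of macrophages, through Slc11a1, and leaves through ferroportin (Slc40a1) with the help of the ferroxidase ceruloplasmin (Cp). Haem oxygenase 1 (Hmox1) frees iron from haem, and Blvrb reduces biliverdin and flavins. When iron is scarce, iron regulatory proteins bind hairpins called iron-responsive elements. A hairpin in the 5′ untranslated region then blocks translation, and hairpins in the 3′ untranslated region protect the mRNA from decay, so the amount of ferritin protein can change with no change in its mRNA. Only mRNA was measured here.

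The hairpins are shown because they are the known points of control of these mRNAs by iron. Untranslated regions of GENCODE M21 transcripts were searched on the sense strand for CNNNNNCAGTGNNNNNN, with 5 paired bases above the unpaired C and at least 4 of 6 paired bases below it, G to T pairs allowed. Capitals mark the 6-base loop CAGTGN. The elements found lay 5′ in the 2 ferritin genes and ferroportin and 3′ in the transferrin receptor. They read as follows, 5′ to 3′, on GRCm38, the build of all positions given here.
Fth1, chr19:9982732-9982760, plus strand: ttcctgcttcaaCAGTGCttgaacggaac
Ftl1, chr7:45459779-45459807, minus strand: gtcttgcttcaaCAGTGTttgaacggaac
Slc40a1, chr1:45925465-45925493, minus strand: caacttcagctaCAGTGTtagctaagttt
Tfrc element at chr16:32631219-32631247, plus strand: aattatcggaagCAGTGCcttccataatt
Tfrc element at chr16:32631598-32631626, plus strand: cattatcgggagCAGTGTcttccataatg
Tfrc element at chr16:32631663-32631691, plus strand: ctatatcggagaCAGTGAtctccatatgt
Tfrc element at chr16:32631710-32631738, plus strand: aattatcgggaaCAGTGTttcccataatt
Such an element lay in the 5′ untranslated region of 6 of 20105 protein-coding genes (0.0298%) and in the 3′ untranslated region of 17 of 20858 (0.0815%). These letters were not found in the untranslated regions of the other 6 genes, but the search allows no bulge in the upper stem, so elements with one, such as that known in Slc11a2, are not matched. The elements shown, those of Tfrc included, may for the same reason not be the full set of their gene. A match is a description of sequence and no measure of binding.

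In control there were 8280 cells and 36632591 unique molecular identifiers (UMIs, 1 per captured mRNA molecule), and the median total of a cell was 3783.5 UMIs. In fibrosis there were 7173 cells and 38090308 UMIs, and the median total was 4292. The lowest total of a cell was 1460 and 1915 UMIs, and 89 barcodes occurred in both tables. Cells were sorted into classes by marker genes, without using the 10 genes, and the class names carry "-like" because they are rebuilt. There were 14 classes with at least 50 cells in each library, and a level is given as CPM, UMIs per 1000000 UMIs of the class in that library. The endothelial-like class was 1 cluster, with Edn1, Plvap and Vwf among its leading genes. Clusters that mixed endothelial and AT1 markers were left out, so this class may not stand for all endothelial cells. The endothelial-like control cells also carried the neutrophil markers at 26002 CPM in sum against 1675 CPM in fibrosis, which bears on results given below. The ciliated-like class was 1 cluster too. Its mean log2 excess was 7.11 for ciliated markers, with 6 raised 2-fold, but 4.18 for club markers, with 5 raised. The part of club RNA in ciliated-like levels was not tested.

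A gene was called higher or lower in a class when its CPM differed at least 2-fold between the libraries, the counting interval lay on one side of no change, and at least 20 UMIs were counted over both libraries. Log2 ratios are fibrosis over control with 0.5 UMI added to each sum. Some genes of this series differ between the libraries in every class, so each ratio is also given less the median ratio of the same gene in the other classes.

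**Figure D1:**
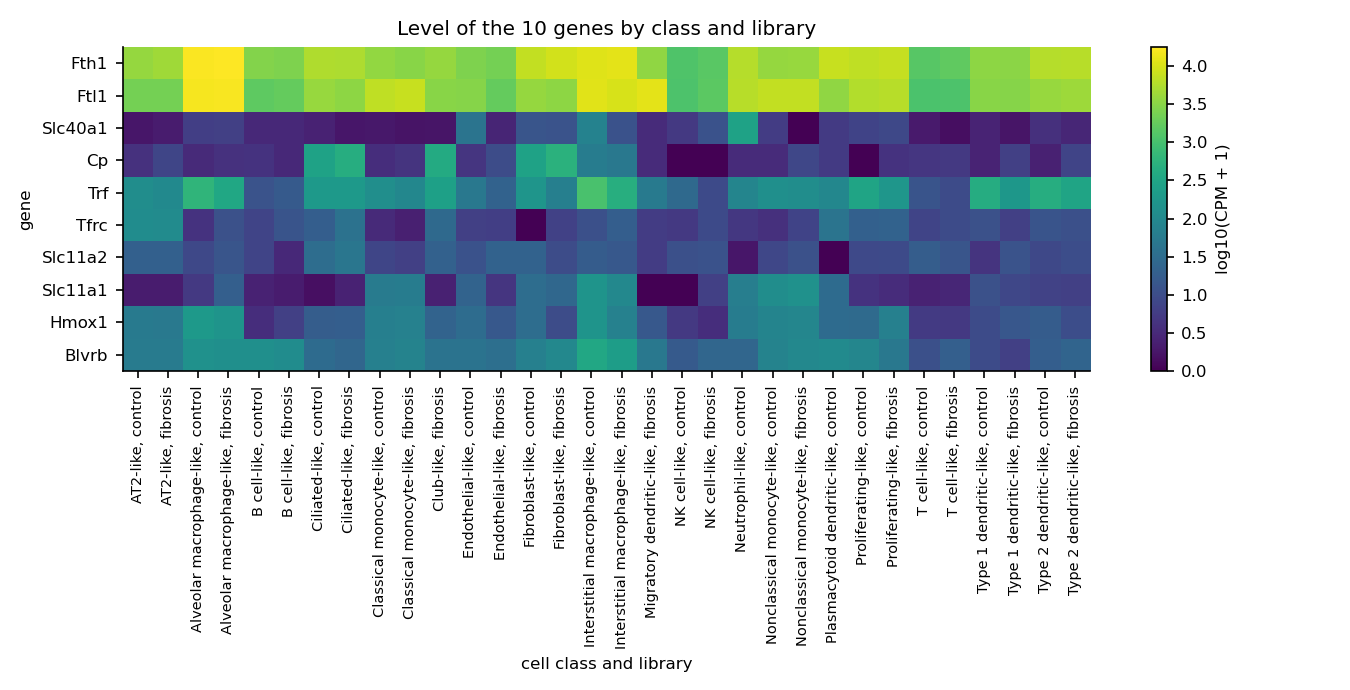
Level of each of the 10 genes (rows) in every class and library with at least 50 cells (columns), as the logarithm to base 10 of CPM plus 1. Both ferritin rows are bright throughout and brightest in alveolar macrophage-like cells, while Slc40a1 is bright in control neutrophil-like cells, Cp in ciliated-like, club-like and fibroblast-like cells and Tfrc in AT2-like cells.

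Few of the 10 genes were called in any class. Alveolar macrophage-like cells had 2 of 10 genes called higher, Slc11a1 and Tfrc, and 0 called lower, where 4.29% of 10267 genes were called higher and 1.51% lower. Interstitial macrophage-like cells had 3 of 10 called lower, Slc40a1, Trf and Hmox1, and 0 higher, against 2.32% and 2.47% of 7238 genes. Only Trf of these was called without 1 unusual control cell, described below. AT2-like cells had 1 of 8 called higher, Cp, against 2.82% of genes, and 0 lower, against 0.952%. Endothelial-like cells had 2 of 6 called lower, Slc40a1 and Trf, against 4.99% of genes, and 0 higher, against 4.04%. Trf was the 1 member called lower in type 1 dendritic-like cells, where 2.59% of genes were, in fibroblast-like cells, where 2.67% were, and in NK cell-like cells, where 2.28% were. No member was called higher in these classes, where 2.4%, 3.89% and 2.74% of genes were. Tfrc was the 1 member called higher in ciliated-like cells, where 3.48% of genes were called higher and 1.01% lower, and Hmox1 in proliferating-like cells, where 2.64% and 2.84% were. There were 0 members called in B cell-like cells, where 2.7% of genes were called higher and 1.64% lower, and 0 in T cell-like cells, where 5.37% and 0.814% were. There were also 0 in classical monocyte-like (2.81% and 1.45%), nonclassical monocyte-like (2.77% and 1.47%) and type 2 dendritic-like cells (2.46% and 2.49%). The median log2 ratio of the members tested was 0.09 in alveolar macrophage-like, -0.46 in interstitial macrophage-like and -0.01 in AT2-like cells, beside -0.07, -0.05 and 0.05 over all genes tested. The interstitial macrophage-like median includes the unusual control cell. Without that cell the log2 ratio was -0.20 for Slc40a1, -0.36 for Hmox1 and -1.25 for Trf.

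Both ferritin chains were expressed in every class and most in alveolar macrophage-like cells, and neither was called in any of the 14 classes. Fth1 (ENSMUSG00000024661, chr19:9980598-9985098, plus strand) was highest in alveolar macrophage-like cells, at 16980 CPM in control and 17913 CPM in fibrosis. Interstitial macrophage-like cells followed with 11271 and 11782 CPM. T cell-like cells, at 1388 and 1653 CPM, and NK cell-like cells, at 1189 and 1436 CPM, were lowest in both libraries. These ends of the order were thus the same in both libraries, and the alveolar macrophage-like level stood above its nearest neighbour beyond counting error in each.

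Ftl1 (ENSMUSG00000050708, chr7:45457944-45459884, minus strand, overlapping Gm22133 on the same strand and Gm10252 on the other) was also highest in alveolar macrophage-like cells, at 15766 CPM in control and 16282 CPM in fibrosis. In interstitial macrophage-like cells it stood at 11522 CPM in control and 9721 CPM in fibrosis, with a log2 ratio of -0.25, or of 0.16 when cells were gated one by one on markers. Migratory dendritic-like cells, with at least 50 cells in fibrosis only, had 11779 CPM (11456 to 12109), above the interstitial macrophage-like level there. This order held for summed UMIs only. In the median fibrosis cell Ftl1 made up 0.795% of UMIs in migratory dendritic-like and 0.883% in interstitial macrophage-like cells. Classical monocyte-like cells had 7134 and 8011 CPM and nonclassical monocyte-like cells 7202 and 7226 CPM. Their Fth1 levels were 3725 and 3154 CPM and 3861 and 3925 CPM, so monocyte-like cells ranked higher for the light chain than for the heavy chain. The chains together made up 3.27% of all alveolar macrophage-like UMIs in control and 3.42% in fibrosis.

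**Figure D2:**
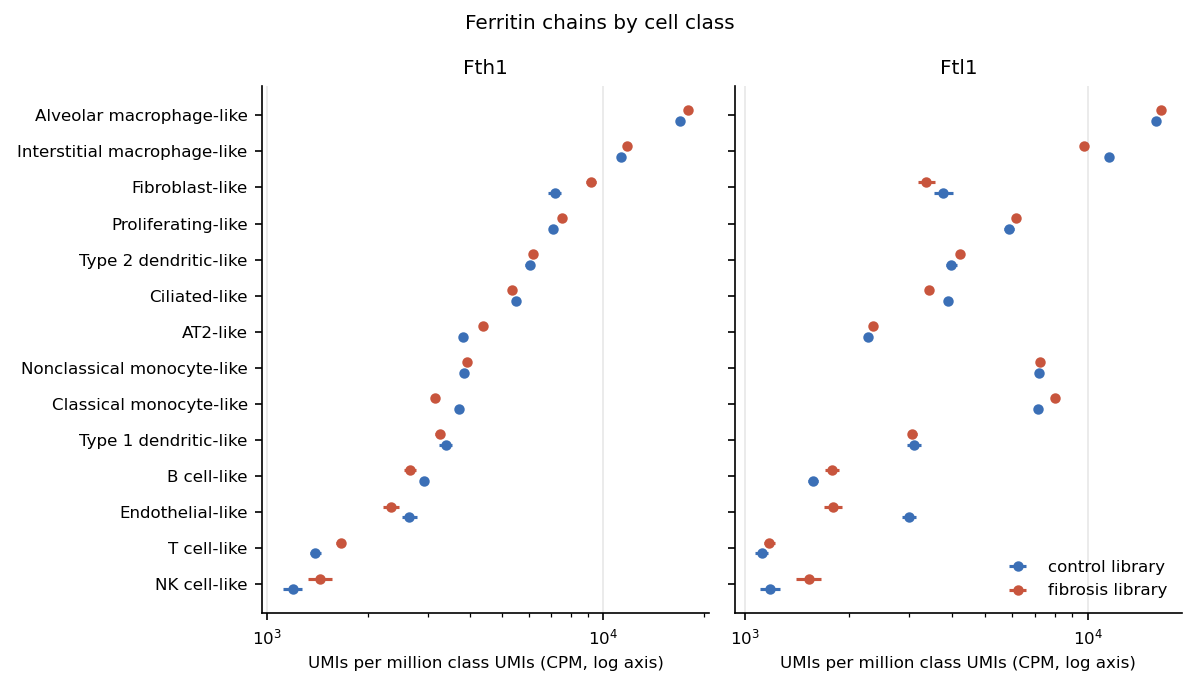
Fth1 (left) and Ftl1 (right) in CPM on a log axis in the 14 classes, control in blue and fibrosis in red, with exact Poisson 95% intervals. The points of the 2 libraries lie close together in each class, and the widest gap is Ftl1 in endothelial-like cells, at 3004 CPM in control and 1802 CPM in fibrosis.

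The ferritin ratios were set against the shifts seen in every class. Over the 14 classes the median log2 ratio of Fth1 was 0.05, with a lowest value of -0.24 in classical monocyte-like and a highest of 0.36 in fibroblast-like cells. The median for Ftl1 was also 0.05, from -0.74 in endothelial-like to 0.38 in NK cell-like cells. Among the 3017 genes with at least 20 UMIs in all 14 classes, the 5th and 95th percentile of the median were -0.31 and 0.33, and the chains lay at the percentiles 63.9 (Fth1) and 63.6 (Ftl1). For contrast, Nme2, the gene of a nucleoside diphosphate kinase, had a median of 3.14 and at least 2.20 in each class. Less the other classes, the alveolar macrophage-like log2 ratio was 0.05 for Fth1 and 0.00 for Ftl1.

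The balance of heavy to light chain UMIs differed widely between classes. Plasmacytoid dendritic-like cells had 2.26 Fth1 UMIs per Ftl1 UMI in control (2.08 to 2.46), and migratory dendritic-like cells had 0.305 in fibrosis (0.288 to 0.323). Each of these was measured in the 1 library with at least 50 such cells. Classical monocyte-like cells had 0.522 (0.515 to 0.530) in control and 0.394 (0.381 to 0.407) in fibrosis. Fibroblast-like cells had 1.89 (1.75 to 2.05) and 2.73 (2.55 to 2.92), and alveolar macrophage-like cells had 1.08 and 1.10. UMIs of a 3′ assay count molecules and not length, but capture can differ between genes, so only differences in the balance between classes or libraries can be read. GENCODE M21 names 5 heavy-chain-like and 3 light-chain-like ferritin pseudogenes, and 0 of these are rows of the tables, so the counts of both chains are uncertain as to reads shared with such copies.

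Single alveolar macrophage-like cells varied widely around a steady middle. Fth1 made up a median of 1.36% of a cell's UMIs in control and 1.34% in fibrosis. The 10th percentile of cells was 0.737% in control and 0.615% in fibrosis, and the 90th percentile was 2.52% and 2.90%. For Ftl1 the median was 1.35% in control and 1.28% in fibrosis. Its 10th percentile was 0.717% in control and 0.579% in fibrosis, and its 90th percentile was 2.35% and 2.63%. The spread over cells was thus wider in the fibrosis library for both chains, while the medians differed little.

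Ferroportin, the only known cellular iron exporter, was mainly a neutrophil transcript in the control lung. Slc40a1 (ENSMUSG00000025993, chr1:45908068-45926523, minus strand) stood at 284.5 CPM (256 to 315) in the 643 control neutrophil-like cells. These held 364 UMIs, or 63.2% of the Slc40a1 UMIs in the cells of that library left after filtering. The fibrosis library had 48 neutrophil-like cells, too few to compare, with 19 UMIs at 171 CPM. After thinning each cell to 1000 UMIs, 23.6% of control neutrophil-like cells (20.4 to 27.1) held a Slc40a1 UMI, and 40.1% did before thinning. B cell-like cells of similar depth gave 0.337% after thinning, at a median of 1829 UMIs per cell against 1810 in neutrophil-like cells. Slc40a1 was therefore far above the level of free RNA in neutrophil-like cells.

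Slc40a1 was called lower in interstitial macrophage-like and endothelial-like cells, and both calls rested on a few cells. In interstitial macrophage-like cells there were 46 UMIs in control and 14 in fibrosis, or 76.4 and 10.7 CPM, with a log2 ratio of -2.80 (-3.81 to -1.94). Of the 46 control UMIs, 39 came from 1 cell. Without that cell the control level was 11.95 CPM and the log2 ratio was -0.20 (-1.56 to 1.39), which is not a call. In endothelial-like cells there were 24 UMIs in control and 1 in fibrosis, or 43.0 and 1.74 CPM, with a log2 ratio of -4.08 (-9.99 to -2.01). All 24 lay in the 30 control cells in which neutrophil markers made up more than 1% of UMIs. The other 132 control cells held 0 Slc40a1 UMIs, which allows up to 6.78 CPM, and the matching 128 fibrosis cells held 1. With cells gated one by one the log2 ratio was -0.66. Alveolar macrophage-like cells had Slc40a1 at 5.07 CPM in control and 5.51 CPM in fibrosis, with a log2 ratio of 0.10 (-0.79 to 1.08).

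Ceruloplasmin, the copper enzyme that oxidises iron for loading onto transferrin, was found mainly in airway epithelium and fibroblasts. Cp (ENSMUSG00000003617, chr3:19957054-20009145, plus strand, overlapping Hps3 on the other strand) stood at 286 CPM in control and 514 CPM in fibrosis in fibroblast-like cells. In ciliated-like cells it stood at 284 and 447 CPM. The log2 ratios were 0.84 (0.44 to 1.27) and 0.65 (0.51 to 0.80), short of 2-fold in both. Of the 180 Cp UMIs of fibrosis fibroblast-like cells, 30 came from 1 cell, while no control cell held more than 6. A Cp UMI was found in 66 of 132 control and 109 of 142 fibrosis ciliated-like cells, a class that also carried club markers. Club-like cells had 334 CPM in 42 control cells and 398 CPM in 94 fibrosis cells, and interstitial macrophage-like cells had 59.8 and 49.1 CPM. Fibroblast-like and ciliated-like cells did not differ beyond counting error in either library. Cp was called higher in AT2-like cells, from 19 to 70 UMIs, with a log2 ratio of 1.11 (0.39 to 1.96). Those levels were 3.11 and 6.85 CPM (5.34 to 8.66), beside 3.16 and 2.14 CPM (0.26 to 7.75) in B cell-like cells and 0 UMIs in NK cell-like cells, and the thinned share of AT2-like cells with a Cp UMI was 0.798% in control and 0.774% in fibrosis. Less the other classes the log2 ratio was 0.62.

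Transferrin mRNA was lower in fibrosis in 12 of the 14 classes, with a median log2 ratio of -0.67. Trf (ENSMUSG00000032554, chr9:103204001-103230444, minus strand) had its peak in the interstitial macrophage-like class, at 1085 CPM in control and 462 CPM in fibrosis. Next came alveolar macrophage-like cells at 601 and 342 CPM, and it stood in type 2 dendritic-like cells at 443 and 307 CPM, and in type 1 dendritic-like cells at 428 and 178 CPM. It was near level in ciliated-like cells, at 200.3 and 203 CPM, and was higher in fibrosis only there and in B cell-like cells, where 21 and 14 UMIs gave 11.1 and 15.0 CPM. Counting intervals lay below no change in 10 classes and above it in 0. Of these, Trf was called lower in 5.

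The 5 calls for Trf were in interstitial macrophage-like, type 1 dendritic-like, fibroblast-like, endothelial-like and NK cell-like cells. The log2 ratio was -1.23 (-1.39 to -1.07) in interstitial macrophage-like cells and -1.26 (-1.524 to -0.998) in type 1 dendritic-like cells. After thinning, 57.6% of control and 34.6% of fibrosis interstitial macrophage-like cells held a Trf UMI. The other 3 calls rested on fewer molecules, 40 and 24 UMIs in fibroblast-like, 28 and 12 in endothelial-like and 20 and 3 in NK cell-like cells. With no doublets removed the NK cell-like log2 ratio was -0.40, which is not a call. Neutrophil markers in NK cell-like cells summed to 710 CPM in control and 8999 CPM in fibrosis, and in fibroblast-like cells to 4595 and 790 CPM. Without cells over 1% neutrophil marker UMIs the log2 ratio was -1.50 (-4.08 to 0.06) in NK cell-like cells, which is not a call, and -1.24 (-2.05 to -0.48) in fibroblast-like cells, which is. Less the other classes, the log2 ratio was -0.70 in interstitial macrophage-like, -0.73 in type 1 dendritic-like and -0.29 in alveolar macrophage-like cells. The interstitial macrophage marker list itself was at 20479 CPM in control and 14643 CPM in fibrosis in its class, and the alveolar macrophage list at 106 and 495 CPM, and the part of these in the Trf result was not tested. Gm20425, annotated on the same strand across Trf, had 0 UMIs in both tables.

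**Figure D3:**
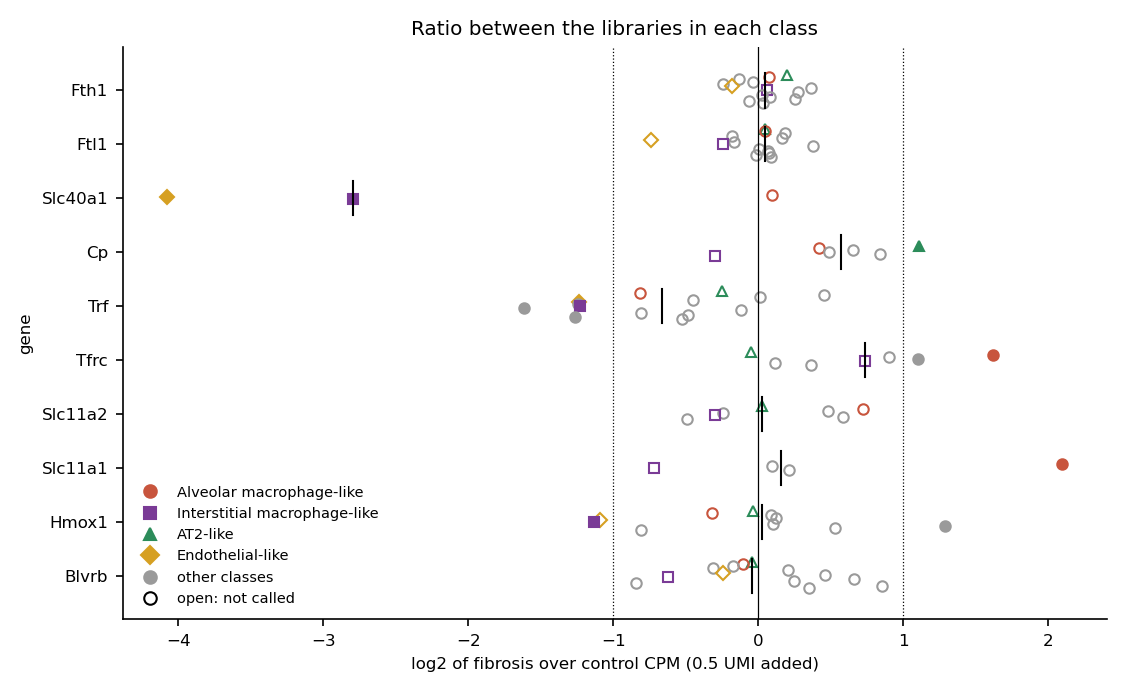
Log2 ratio of fibrosis over control CPM for each gene (rows), 1 symbol per class with at least 20 UMIs, filled where called and open where not, with the median over classes as a black bar and dotted lines at 2-fold. Fth1 and Ftl1 sit around 0, Trf lies mostly to the left with a median of -0.67, and the far left symbols of Slc40a1 rest on 1 interstitial macrophage-like cell and on 30 endothelial-like cells with neutrophil RNA.

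The transferrin receptor was an AT2 transcript and was level there. Tfrc (ENSMUSG00000022797, chr16:32608920-32632794, plus strand) stood in AT2-like cells at 116 CPM (107 to 124) in control and 112 CPM (105 to 118) in fibrosis, with a log2 ratio of -0.05 (-0.18 to 0.09). AT2-like cells held 79.3% of the Tfrc UMIs of the control library and 75.9% of those of the fibrosis library. Every other class of at least 50 cells was at 42.3 CPM or less, and AT2-like cells stood above the next class beyond counting error in both libraries.

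Tfrc was called higher in alveolar macrophage-like and ciliated-like cells. Alveolar macrophage-like cells had 10 UMIs in control and 59 in fibrosis, 3.17 and 10.2 CPM, with a log2 ratio of 1.62 (0.70 to 2.81). Even the higher of these levels was close to the 11.8 CPM of B cell-like and the 8.31 CPM of T cell-like cells in the same library. Less the other classes the log2 ratio was 1.07. When cells over 5% mitochondrial UMIs were left out, the log2 ratio was 0.36, which is not a call, and -0.20 less the other classes. Ciliated-like cells had 35 and 99 UMIs, 17.8 and 38.6 CPM, with a log2 ratio of 1.11 (0.55 to 1.72) and of 0.55 less the other classes. Their share with a Tfrc UMI was 15.9% in control and 31.7% in fibrosis as counted, at median depths of 6823 and 10576 UMIs. After thinning it was 0.758% of 132 control cells and 0.704% of 142 fibrosis cells. These are too few cells with a UMI to compare the libraries.

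Slc11a2, the divalent metal transporter that moves iron out of endosomes, was low in every class and was called in none of the 7 in which it had at least 20 UMIs. Slc11a2 (ENSMUSG00000023030, chr15:100387898-100425072, minus strand, overlapping Gm5475 on the other strand) was highest in ciliated-like cells, at 32.5 CPM in control and 45.7 CPM in fibrosis. AT2-like cells had 18.8 and 19.2 CPM. The alveolar macrophage-like level was 7.29 and 12.2 CPM, with a log2 ratio of 0.72 (0.05 to 1.49), short of 2-fold. In interstitial macrophage-like cells 10 and 18 UMIs gave a log2 ratio of -0.30 (-1.46 to 1.01), so a difference of 2-fold in either direction was not detectable at this depth.

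Slc11a1, the metal transporter of macrophage phagosomes, was highest in interstitial macrophage-like and nonclassical monocyte-like cells and was called higher in alveolar macrophage-like cells. Nonclassical monocyte-like cells had Slc11a1 (ENSMUSG00000026177, chr1:74375195-74386062, plus strand) at 121 CPM in control and 140 CPM in fibrosis, and it was at 57.0 and 60.6 CPM in classical monocyte-like cells. Control neutrophil-like cells had 65.7 CPM. In interstitial macrophage-like cells it was 158 CPM in control and 95.8 CPM in fibrosis, with a log2 ratio of -0.72 (-1.12 to -0.32), short of 2-fold. For alveolar macrophage-like cells, 13 UMIs in control and 106 in fibrosis gave 4.12 and 18.2 CPM and a log2 ratio of 2.10 (1.31 to 3.10). The T cell-like level was 1.59 CPM in control and 1.85 CPM in fibrosis. Most of the fibrosis UMIs lay in 1 cluster, described next.

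Alveolar macrophage-like cells fell into a large cluster with 640 control and 774 fibrosis cells and a small one, led by the macrophage elastase gene Mmp12, with 3 control and 236 fibrosis cells. The small cluster only narrowly got its class name. Its mean log2 excess over the other cells was 1.36 for alveolar and 1.13 for interstitial macrophage markers. It had 4 alveolar macrophage markers raised 2-fold, while the large cluster had 8 and an excess of 4.77. The small cluster held 82 of the 106 fibrosis UMIs of Slc11a1 (77.4%), at 49.996 CPM. In the large cluster Slc11a1 was at 3.82 CPM in control and 5.75 CPM in fibrosis, with a log2 ratio of 0.56 (-0.46 to 1.72). Tfrc was at 3.18, 7.19 and 17.7 CPM in the large control, large fibrosis and small fibrosis cells, and Slc11a2 was at 7.32, 10.3 and 17.1 CPM. All 3 metal carriers were thus highest in the Mmp12-high cells, although for Slc11a2 the interval between the fibrosis clusters reached from -0.01 to 1.45.

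Hmox1 and Trf differed between these clusters in opposite directions. Hmox1 was at 195 CPM in the large cluster of the control library, 129 CPM in the large cluster of the fibrosis library and 229 CPM in the Mmp12-high cluster. Within the fibrosis library the small over large log2 ratio was 0.83 (0.63 to 1.02) for Hmox1 and -0.93 (-1.11 to -0.76) for Trf. Trf was at 602, 395 and 207 CPM in the same order. Ftl1 was at 15759, 15298 and 18786 CPM, and Fth1 at 16990, 17788 and 18231 CPM, with small over large log2 ratios in fibrosis of 0.30 and 0.04. The 2 clusters were separated by other genes of the same cells, so these values are a description. The alveolar macrophage marker list of the whole class was at 19336 CPM in control and 43182 CPM in fibrosis, and the interstitial macrophage list at 50.7 and 499 CPM, and the part of these in the Slc11a1 result was not tested.

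**Figure D4:**
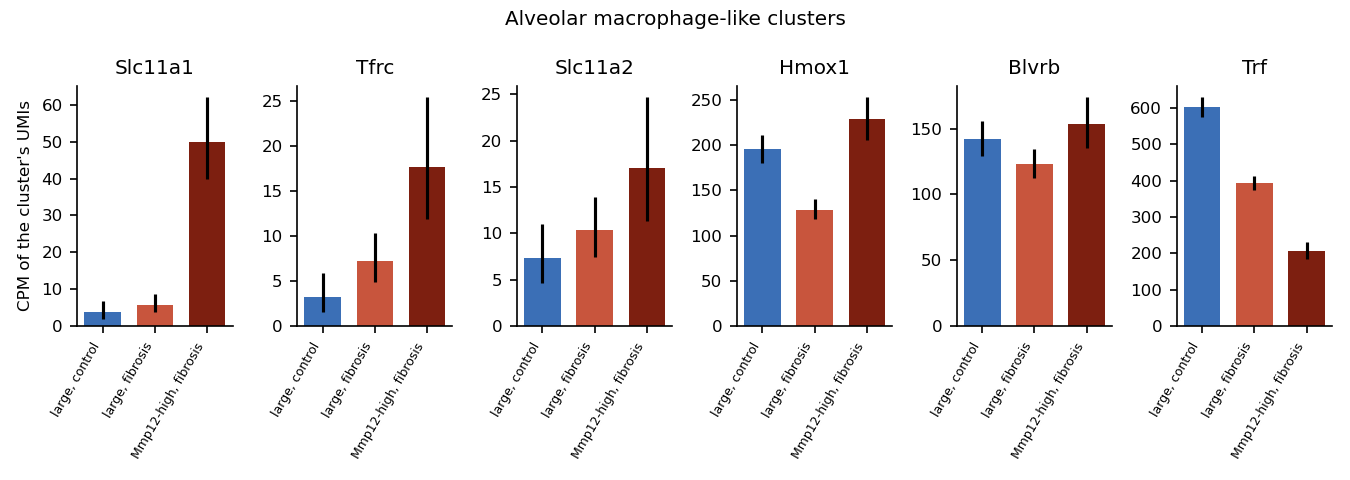
CPM of 6 genes in the large alveolar macrophage-like cluster of the control library (blue), the same cluster of the fibrosis library (red) and the Mmp12-high cluster of the fibrosis library (dark red), with exact Poisson 95% intervals and an axis of its own for each gene. Slc11a1 reaches 49.996 CPM in the Mmp12-high cluster against 5.75 CPM in the large fibrosis cluster, and Trf is lowest in the Mmp12-high cluster.

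Haem oxygenase 1 was highest in alveolar macrophage-like cells. Hmox1 (ENSMUSG00000005413, chr8:75093621-75100589, plus strand) stood there at 196 CPM in control and 157 CPM in fibrosis, or -0.32 in log2 (-0.47 to -0.17). The nonclassical monocyte-like cells had 82.6 and 88.6 CPM, classical monocyte-like cells 67.3 and 73.2 CPM, and AT2-like cells 53.7 and 52.4 CPM. B cell-like, T cell-like and NK cell-like cells were all under 6 CPM. In the control library the alveolar and interstitial macrophage-like levels overlapped in their intervals.

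Hmox1 was called lower in interstitial macrophage-like cells and higher in proliferating-like cells. Interstitial macrophage-like cells had 95 UMIs in control and 94 in fibrosis, 158 and 72.1 CPM, with a log2 ratio of -1.13 (-1.56 to -0.70). The cell that held 39 Slc40a1 UMIs also held 41 of the 95 Hmox1 UMIs. Without it the control level was 92.2 CPM and the log2 ratio was -0.36 (-0.85 to 0.16), which is not a call. Proliferating-like cells had 18 and 88 UMIs, 28.2 and 70.5 CPM, with a log2 ratio of 1.29 (0.58 to 2.14). There the fullest cell held 2 and 18 UMIs, and without these the log2 ratio was 1.12 (0.35 to 2.03). The share of cells with a Hmox1 UMI after thinning gave a log2 ratio of only 0.26. Proliferating-like cells carried markers of other classes. Their alveolar macrophage markers summed to 9284 CPM in control and 20798 CPM in fibrosis, and the part of this in the Hmox1 result was not tested.

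That single control cell stood apart in several of the 10 genes. It had 16350 UMIs, the most of the 165 control cells of its class, whose median was 3322, and 2.32% of its UMIs were mitochondrial. It held the most UMIs of any control interstitial macrophage-like cell for Fth1 (389), Ftl1 (676), Slc40a1 (39), Hmox1 (41), Slc11a1 (7) and Cp (4), and the next highest cell had 141, 224, 2, 10, 5 and 3. Relative to its own total, Ftl1 made up 4.13% and Fth1 2.38%, against 1.07% and 1.09% over the other 164 cells. It held 69 UMIs of C1qc and 51 of C1qb, both complement genes of macrophages. Of its own total, 0.422% was C1qc, 0.312% C1qb and 0.281% C1qa, against 0.465%, 0.554% and 0.663% over the other 164 cells. It held 0 UMIs of the class markers Ms4a7 and Pf4. It also held all 46 UMIs of Cd5l in control cells of the class, 51 of 52 of Marco, 21 of 131 of Vcam1 and 4 UMIs of Spic, genes known from tissue macrophages. But it held only 3 of 330 UMIs of Mrc1, where 30 control cells held more, and 0 of 171 of Ccr2. Marco was also among the leading genes of the large alveolar macrophage-like cluster. The genes from Cd5l to Ccr2 were looked up after the cell had been found. It held 0 haemoglobin UMIs.

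**Figure D5:**
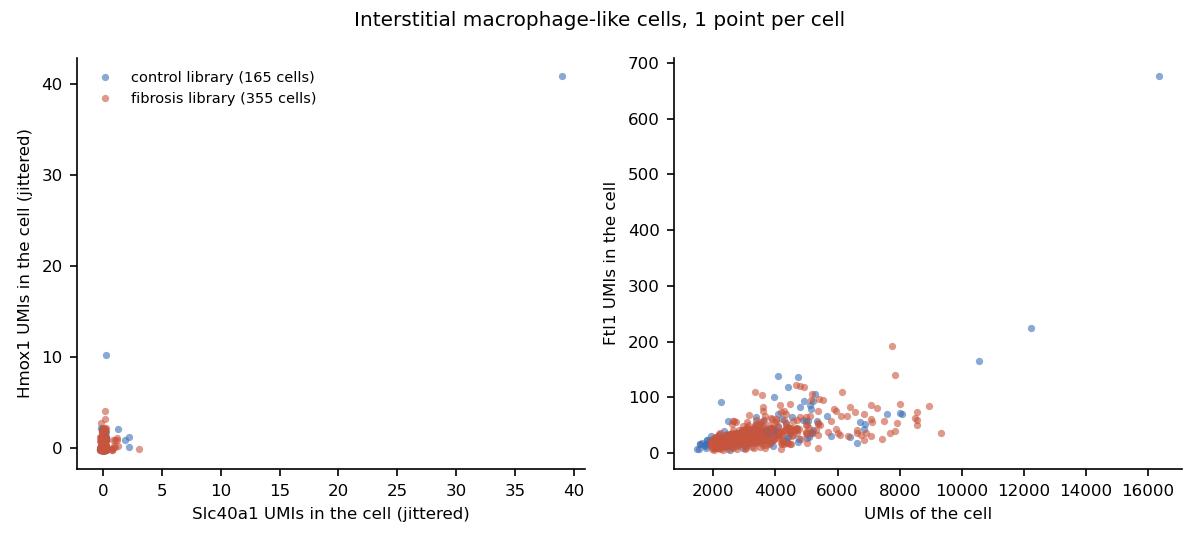
Each point is 1 interstitial macrophage-like cell, control in blue and fibrosis in red. On the left, Hmox1 UMIs are plotted against Slc40a1 UMIs with random jitter of at most 0.25 UMI, and on the right Ftl1 UMIs against all UMIs of the cell. 1 control cell lies far from the rest on both plots, with 39 Slc40a1, 41 Hmox1 and 676 Ftl1 UMIs.

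Blvrb, a reductase of flavins and of the beta form of biliverdin, was called in none of 13 classes. Blvrb (ENSMUSG00000040466, chr7:27447978-27466144, plus strand) reached its top level in the interstitial macrophage-like class, with 352 CPM in control and 229 CPM in fibrosis, with a log2 ratio of -0.62 (-0.88 to -0.36). Alveolar macrophage-like cells had 142 and 132 CPM, and B cell-like cells, in which the other haem gene was almost missing, had 131 and 116 CPM. In proliferating-like cells it stood at 87.7 and 48.9 CPM, the opposite direction to Hmox1. T cell-like cells had 10.1 and 18.5 CPM, with a log2 ratio of 0.86 (0.05 to 1.75).

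Endothelial-like cells had the widest ferritin difference, in the class where neutrophil RNA differed most. Fth1 stood there at 2649 CPM in control and 2335 CPM in fibrosis, and Ftl1 at 3004 and 1802 CPM, with a log2 ratio of -0.74 (-0.85 to -0.63) for Ftl1. The Ftl1 ratio was -0.43 with cells gated one by one and -0.48 from the mean of per-cell CPM. The share of cells with an Ftl1 UMI after thinning gave -0.03. Before thinning, 158 of 162 control and 128 of 132 fibrosis cells held one. For a gene found in nearly all cells, such a share can show little of a difference in level. Without the cells over 1% neutrophil marker UMIs, 132 control and 128 fibrosis cells remained. In these the log2 ratio was 0.02 (-0.10 to 0.14) for Fth1 and -0.63 (-0.76 to -0.51) for Ftl1, and -1.17 (-2.48 to -0.01) for Trf. The Ftl1 and Trf ratios thus stayed below 0 without these cells. AT2 markers summed to 1955 CPM in control and 5702 CPM in fibrosis in endothelial-like cells, and classical monocyte markers to 811 and 156 CPM, and the part of these was not tested.

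A wider list of 48 iron and haem genes, of which 46 are rows of the tables, gave the surroundings of the 10. At least 20 UMIs were found for 35 of them in alveolar macrophage-like cells, of which 2 were called higher and 0 lower, and 0 were called higher when cells over 5% mitochondrial UMIs were left out. Lcn2, a siderophore-binding protein made in innate defence, was 1 of these, with a log2 ratio of 1.21 (0.69 to 1.79) and of 0.51 less the other classes. In the large alveolar macrophage-like cluster Lcn2 was at 11.5 CPM in control and 28.3 CPM in fibrosis. In the T cell-like clusters it was at 17.4, 16.7 and 3.05 CPM in control and 24.4, 25.2 and 44.9 CPM in fibrosis. The other gene called, Steap3, an endosomal ferrireductase that hands iron to Slc11a2, had 7 UMIs in control and 40 in fibrosis, with a log2 ratio of 1.55 (0.46 to 3.04) and of 1.79 less the other classes. Among interstitial macrophage-like cells 0 of 28 were called lower. Among AT2-like cells 2 of 34 were called higher and 0 lower. Lcn2 had 758 CPM in control and 2057 CPM in fibrosis, with a log2 ratio of 1.44 (1.39 to 1.49), of which 0.74 remained less the other classes. Steap4, a ferrireductase of the cell surface, had 18 and 83 UMIs, 2.94 and 8.13 CPM, and a log2 ratio of 1.43 (0.72 to 2.29), or 0.92 less the 1 other class with enough UMIs. Its B cell-like level was 2.11 and 3.22 CPM. The shares called among all genes in the same classes were those given above.

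By role, the calls of the list in alveolar macrophage-like and AT2-like cells lay in uptake and reduction. Of 7 tested genes for uptake, reduction and phagosomal transport, 2 were called higher in alveolar macrophage-like and 2 in AT2-like cells. Over all genes 4.29% and 2.82% were. This was not particular to these classes. In the same role 2 of 6 were called higher in ciliated-like, 2 of 5 in fibroblast-like and 2 of 2 in type 1 dendritic-like cells. In NK cell-like cells it was 1 of 1, and in proliferating-like cells 1 of 6. In endothelial-like and proliferating-like cells 1 gene each was called lower. Lcn2 was called higher in alveolar macrophage-like, AT2-like, ciliated-like, NK cell-like and type 1 dendritic-like cells, and lower in endothelial-like cells. Its level in alveolar macrophage-like cells was close to that in T cell-like cells. Of the 8 genes of haem synthesis, all 8 were tested in alveolar macrophage-like and in AT2-like cells and 0 were called. Of the genes for cytosolic handling, ferritin turnover and iron sensing, 8 were tested in alveolar macrophage-like and 7 in interstitial macrophage-like cells, and 0 were called. Heph, Hephl1 and Hamp, the other ferroxidases and hepcidin, had too few UMIs in alveolar macrophage-like, interstitial macrophage-like and AT2-like cells.

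Across the 32 points of class and library with at least 50 cells, the genes most like each member in log2(CPM + 10) followed the classes already named. The points share libraries and marker-defined classes, so the correlations are descriptions. Slc40a1 was most like Mmp9, a neutrophil marker used to name that class (Pearson r of 0.93), Stfa2l1 (0.90) and Gm5483 (0.87). Cp was most like Aldh1a1, a club marker used here (0.94), Fam13a (0.93) and Gsta3 (0.92). Tfrc was most like Slc26a9 (0.87), Cldn18 (0.87) and Acsl4 (0.86), and Slc11a1 most like Pla2g7 (0.94), Lst1 (0.91) and Csf1r (0.89). Fth1 was most like Cib2 (0.86), Atp6ap2 (0.85) and Rnf13 (0.82), and Ftl1 most like the protease inhibitor gene Cstb (0.87), Tmem106a (0.86) and Lgals3 (0.86). Hmox1 was most like Zdhhc9 (0.90), Fgd4 (0.88) and Creg1 (0.87). Blvrb was most like Lgmn (0.80), Apoe (0.80) and Tpp1 (0.74), Trf most like Cebpg (0.79), Shtn1 (0.76) and Nt5c2 (0.76), and Slc11a2 most like 1110004E09Rik (0.80), Cbr1 (0.80) and Appl2 (0.80). The 2 ferritin chains had an r of 0.77 with each other.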

How the data were processed

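Whole lung cells were captured with 10x Genomics 3′ V2 chemistry, per the labels' protocols. Demultiplexing with bcl2fastq, Cell Ranger 1.3 and the build mm10 are named in the submitters' processing notes. Annotation, read length and the cell filter are not given in the sources used here. The deposited values are raw UMI counts per gene and cell, without normalisation. Of the 27998 gene identifiers, 27645 (98.7%) have an entry in GENCODE M21, the source of the GRCm38 positions.

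Cells with fewer than 200 genes or over 10% mitochondrial UMIs were left out (1 and 254 control cells, 0 and 228 fibrosis cells). Doublets were scored with the scrublet routine of scanpy 1.11.5. Its threshold marked 15 of 8025 control cells (0.187%), so the top-scoring share at 0.8% per 1000 cells was removed from both libraries, 515 (6.42%) and 386 (5.56%). This left 7510 and 6559 cells. Both libraries were clustered together (2000 variable genes, 30 principal components, 15 neighbours, Leiden resolution 1, python-igraph 0.11.9) without batch correction, with all members and listed genes left out. Clusters were named from marker lists. Of 43 clusters, 11 were mixed and 1 unnamed, and these were not used. Among the mixed ones were clusters with endothelial and AT1 markers, of 63, 78, 38 and 32 cells, each with Kdr among its leading genes. Naming thresholds were set after clusters had been seen.

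UMIs were summed per class and library. Levels carry exact Poisson intervals, shares exact Clopper-Pearson intervals and ratios exact conditional binomial intervals (scipy 1.17.1), which cover counting error only. Where no UMI was seen, 3 counts served as the upper limit. The calling rule was tried on simulated Poisson counts of the alveolar macrophage-like class, with known fold changes put into some genes. Such counts hold no outlying cells and no RNA from other classes, so the trial cannot speak to these. All 10 genes are named in every class. Listed genes are named where called in alveolar macrophage-like, interstitial macrophage-like or AT2-like cells with at least 1.5-fold left after subtracting the other classes, and the 3 most similar genes by Pearson r. Lcn2 in alveolar macrophage-like cells, Nme2 and the genes of a single cell were named after their values had been seen. One result of the wider list is not reported here. The members and lists were chosen with earlier results of these data known. Alternatives varied the cell filters, doublets, classes, scaling, summary, UMI minimum, fold and shift.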

Additional observations from a re-analysis of the deposited data

Results flagged for a closer look

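Hmox1 was called in opposite directions in 2 classes, with a log2 ratio of 1.29 in proliferating-like cells and of -1.13 in interstitial macrophage-like cells. The difference between these classes was not tested, since each group holds 1 mouse. The lower value rests on 1 control cell with 41 Hmox1 UMIs and was -0.36 without it.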

How the results depend on the processing

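The alternatives that left out the Mmp12-high cluster, cells with an erythroid UMI, cells over 1% neutrophil marker UMIs or the fullest cells, and the one that dropped Scgb1a1, Sftpc and Retnla from the totals, were chosen after seeing the data. Over all alternatives run for them, the median log2 ratio over classes ranged from 0.00136 to 0.111 for Fth1 and from -0.0286 to 0.0733 for Ftl1. Ftl1 in interstitial macrophage-like cells ranged from -0.26 to 0.16, so its direction there depends on the choice. Trf stayed below 0 in each of its 5 called classes under every alternative, and from -1.37 to -0.73 in interstitial macrophage-like cells. No paired analysis was possible because each group holds 1 mouse, so there is no second pair, and the labels tie no mice together.

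Several ratios reversed. Slc40a1 in endothelial-like cells was 1.23 without cells over 1% neutrophil marker UMIs (0 and 1 UMIs) and 2.69 less the other classes. Slc40a1 in interstitial macrophage-like cells, less the other classes, was 1.79 without the cell with most Slc40a1 UMIs. The thinned share gave -0.078 for Cp in AT2-like and -0.11 for Tfrc in ciliated-like cells. Both shares were below 1% of cells in each library, so these values rest on few cells. Less the other classes, Trf in NK cell-like cells was 0.33 with no doublets removed, and Tfrc in alveolar macrophage-like cells was -0.20 at a limit of 5% mitochondrial UMIs. Beyond what these settings state, the cause was not tested.

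Counts moved as follows. The shares over all genes given above belong to the main rule, and none are given here for the alternatives. A looser rule calls more genes of any kind, so the changes in count are not results about the members or the list. Members higher in alveolar macrophage-like cells were 2, and 1 at the 5% limit, 1 without the Mmp12-high cluster and 1 at a minimum of 100 UMIs. Members lower there were 0, and 1 at a fold of 1.5. In interstitial macrophage-like cells 1 member was higher with no doublets removed. Members lower there were 3, and 5 at a fold of 1.5, 1 less the other classes and 1 without the fullest Slc40a1 cell. Members higher in AT2-like cells were 1, and 2 with a cell-by-cell gate, 2 at resolution 0.5, 0 at a minimum of 100 UMIs and 0 less the other classes. Listed genes higher in alveolar macrophage-like cells were 2, and 0 at the 5% limit, 1 with no such limit, 1 with no doublets removed, 1 without the Mmp12-high cluster, 1 at 100 UMIs and 4 at a fold of 1.5. Listed genes higher in interstitial macrophage-like cells were 1, and 2 with the gate, 2 with no mitochondrial limit, 3 with no doublets removed, 0 at 100 UMIs and 2 at a fold of 1.5. Listed genes lower there were 0, and 1 with the gate, 1 at the 5% limit and 1 at a fold of 1.5. Listed genes higher in AT2-like cells were 2, and 4 at a fold of 1.5 and 0 less the other classes. Depth limits Slc40a1, Slc11a1 and Cp most, which had at least 20 UMIs in 3, 4 and 6 classes.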
